A study of Mus musculus with 8 samples.

Results

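The genes described here are 9 genes of retinoic acid synthesis and response in mesenchymal progenitors of mouse skeletal muscle, followed from rest through the days after muscle injury. They are the rows of the deposited expression table with the symbols Rdh10, Dhrs3, Aldh1a1, Aldh1a2, Aldh1a3, Crabp1, Crabp2, Rarb and Rarg, 9 of 23846 rows, and each symbol stood for 1 gene model. Mesenchymal progenitors are stromal cells that lie between the muscle fibres. They were purified by flow cytometry from whole hindlimb muscle as cells bearing the red fluorescent protein tdTomato. All mice were C57BL/6J of genotype Hic1CreERT2/CreERT2;Rosa26LSLtdTomato/+, in which tamoxifen switches on the reporter in cells that express Hic1 and in their descendants. Both Hic1 alleles carry the Cre recombinase in every group, the quiescent control included. At 8 weeks of age the mice received 2.5 mg tamoxifen daily for 5 days, followed by a washout of 10 days. There were 8 polyA RNA libraries, made with a stranded kit: 1 from quiescent progenitors of uninjured muscle and 1 from each of days 1, 2, 3, 4, 5, 7 and 10 after muscle injury. The injury was made with notexin, a toxin of snake venom that kills muscle fibres while sparing the cells that rebuild them. Only 1 library was made per time point and whether RNA from several mice was pooled is not given in the sources used here, so no difference below has a replicate check and no p-value is given.

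Retinoic acid is made from vitamin A in 2 oxidation steps. Retinol dehydrogenases such as Rdh10 turn retinol into retinal, reductases such as Dhrs3 turn retinal back into retinol, and the retinaldehyde dehydrogenases Aldh1a1, Aldh1a2 and Aldh1a3 oxidise retinal irreversibly to retinoic acid. Inside the cell the acid is carried by the small binding proteins Crabp1 and Crabp2, and in the nucleus it binds the retinoic acid receptors, which pair with retinoid X receptors on DNA and switch target genes on or off. Enzymes of the Cyp26 family degrade it. Aldh1a isozymes are widely used as marks of stem and progenitor cells, and Aldh1a2 is the isozyme that makes most retinoic acid in the early mouse embryo.

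The bases just before the start of transcription are shown for the members whose letters bear on the results, the receptor gene Rarb and the isozymes Aldh1a1 and Aldh1a2, which followed different courses. Rarb is itself a classical target of retinoic acid, through a direct repeat in its promoter. Sequences are the 250 bases before the RefSeq start on build GRCm38.p6, written 5′ to 3′ on the gene's own strand, and 6 of the 9 members (Dhrs3, Aldh1a1, Aldh1a2, Crabp1, Rarb and Rarg) had 10 such windows. Capitals mark a direct repeat of receptor hexamers in Rarb, and the octamer ATGCAAAT and the CCAAT box in the Aldh1a genes.
Rarb, chr14:16575477-16575726, minus strand: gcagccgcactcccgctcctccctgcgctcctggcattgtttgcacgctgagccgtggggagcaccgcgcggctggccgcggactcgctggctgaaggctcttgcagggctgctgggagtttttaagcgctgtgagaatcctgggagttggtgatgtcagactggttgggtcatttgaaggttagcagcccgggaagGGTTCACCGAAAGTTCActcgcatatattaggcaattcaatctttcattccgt
Aldh1a2, chr9:71215539-71215788, plus strand: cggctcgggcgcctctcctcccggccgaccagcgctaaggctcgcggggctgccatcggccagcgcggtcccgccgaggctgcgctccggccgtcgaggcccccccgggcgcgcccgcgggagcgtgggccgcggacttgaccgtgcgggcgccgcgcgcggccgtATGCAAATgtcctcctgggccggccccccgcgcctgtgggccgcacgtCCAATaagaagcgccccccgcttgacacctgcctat
Aldh1a1, chr19:20601718-20601967, plus strand: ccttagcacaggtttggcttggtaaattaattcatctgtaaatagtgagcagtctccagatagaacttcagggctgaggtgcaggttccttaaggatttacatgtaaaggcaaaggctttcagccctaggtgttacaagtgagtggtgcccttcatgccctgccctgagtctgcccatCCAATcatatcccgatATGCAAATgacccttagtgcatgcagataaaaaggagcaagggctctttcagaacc

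On both strands of every window, a search was made for pairs of the hexamers AGGTCA or AGTTCA or GGGTCA or GGTTCA in the same direction, spaced by 5, 2 or 1 bases. The Rarb window held such a repeat spaced by 5 bases, from 53 to 37 bases before the start, and it was the only repeat in the members' windows. Of 32851 mouse promoter windows of the same length, 0.0883% held a repeat spaced by 5 bases, 0.174% a repeat spaced by 2 and 0.164% a repeat spaced by 1. The octamer ATGCAAAT was present in 1.60% of all windows, and it lay 84 to 77 bases before the start of Aldh1a2 and 56 to 49 bases before that of Aldh1a1. A CCAAT box, found in 33.8% of windows, was in the same 2 windows and in 2 of the 3 windows of Dhrs3. The AP-1 site TGANTCA, found in 6.75% of windows, was in 1 member window only. That was another window of Aldh1a1, not printed, whose start lies 109399 bases from the deposited start of the gene. The TATA box TATAAA, found in 12.4% of windows, was in none of the members' windows. No motif overlapped another in the windows printed. The 2 Aldh1a windows printed differed in base composition. That of Aldh1a2 was 77.6% G and C with 40 CpG dinucleotides, and that of Aldh1a1 was 46.4% with 1 CpG. The median of all windows was 52.4%. These matches are letters only, and binding was not measured.

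Expression was given by the authors as FPKM, fragments normalised to the length of the transcript and to all mapped fragments, so levels of different genes can be compared per length. A gene was called higher or lower between 2 libraries when log2(FPKM + 1) differed by at least 1 and the higher library held at least 5 FPKM. This log scale understates the change of low genes. Fold values below are plain ratios of FPKM, with a 95% interval that covers the counting of fragments and nothing else. Those intervals rest on depths estimated from the steps between low FPKM values, 10700000 to 28300000 fragments per library. All comparisons with quiescent cells share the quiescent library. Markers of mesenchymal progenitors were found in every library, all 8 at 1 FPKM or more, with Hic1 between 20.6 and 52.2 FPKM and Pdgfra between 77.0 and 153 FPKM. Their sum was 8512 FPKM in quiescent cells, 5060 on day 1, 5278 on day 2 and 12812 on day 7, its highest. Against quiescent, 4 of the 8 were called lower on day 1 and 3 on day 2, where 35.0% and 34.6% of all genes compared were called. On day 3, 1 was called higher, and 2 were on each later day. Marker sums of other cell types varied between libraries. The sum of 10 macrophage and monocyte markers ran from 25.9 FPKM in quiescent cells to 851 FPKM on day 3 and 461 FPKM on day 5. The sum of 9 immediate early genes, which respond to the handling of cells, ran from 2650 FPKM on day 3 to 5999 FPKM in quiescent cells. From the lowest to the highest library, summed markers ran from 180 to 2297 FPKM for tendon (6 genes), 7.55 to 152 for Schwann cells (7 genes), 10.0 to 83.6 for endothelium (9 genes), 26.0 to 250.2 for mural cells (9 genes), 11.6 to 136 for muscle fibres (9 genes), 0.128 to 11.4 for satellite cells and myoblasts (6 genes) and 1.38 to 13.3 for perineurial and epithelial-like cells (6 genes). The endothelial sum was mostly that of 1 gene, Tek, which stood at 7.34 FPKM in the lowest library, day 1, and 68.9 FPKM in the highest, quiescent. In sorted bulk RNA, fewer cells of a type and less RNA per cell cannot be told apart.

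The 9 genes split early. On day 1, Rdh10, Aldh1a2 and Crabp1 rose and Dhrs3, Crabp2 and Rarg fell, 6 of 9 members called, where 35.0% of the 8701 genes compared were called. On day 2, Rdh10, Aldh1a2 and Crabp1 were higher than in quiescent cells and Aldh1a3, Crabp2 and Rarg were lower, again 6 of 9 against 34.6% of all genes compared. On day 3 the count was 4, with Aldh1a2 and Crabp1 higher and Aldh1a3 and Rarg lower, against 24.0%. From day 4 the calls were few: Aldh1a2 on day 4 against a background of 6.72%, Rdh10 and Aldh1a2 on day 5 against 13.0%, Dhrs3 on day 7 against 6.46%, and none of the 9 on day 10 against 4.30%. Over the 7 days, 7 of the 9 members were called at least once, where 47.4% of 9509 genes compared were, and Aldh1a1 and Rarb never were. Over the 7 or 8 members with at least 5 FPKM in either library, the median log2 difference from quiescent was -0.85 on day 1, 0.06 on day 2, 0.08 on day 3, 0.20 on day 4, 0.89 on day 5, 0.42 on day 7 and 0.03 on day 10. Over all 9 it was 0.35 on day 2 and -0.15 on day 3. The median of all genes compared lay between 0.03 and 0.29.

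**Figure D1:**
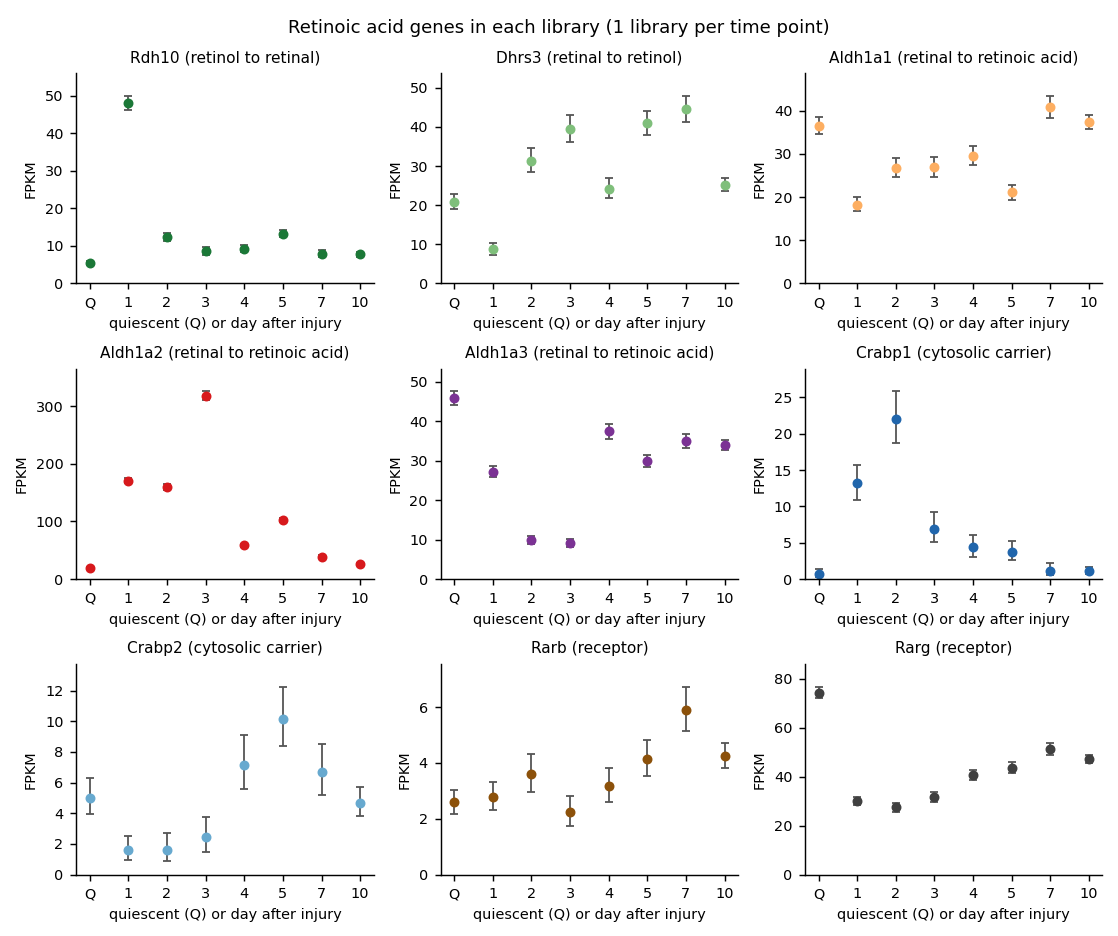
FPKM (vertical axis, linear, from 0) of each of the 9 genes in the quiescent library (Q) and on the days after injury; points are single libraries and bars are 95% counting intervals. Rdh10 stands at 48.1 FPKM on day 1 alone, Aldh1a2 peaks at 318 on day 3, Aldh1a3 dips to 9.01 on day 3, and Rarg is highest, at 74.4, in the quiescent library.

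Steps between neighbouring days placed these changes in time. From day 1 to day 2, Dhrs3 rose while Rdh10 and Aldh1a3 fell, 3 of 9 members where 8.81% of genes were called. From day 2 to day 3 only Crabp1 was called, lower, against 8.06%. From day 3 to day 4, Aldh1a3 and Crabp2 rose and Aldh1a2 fell, 3 of 9 against 8.33%. No member was called from day 4 to day 5 (2.25% of genes) or from day 7 to day 10 (1.33%), and from day 5 to day 7 only Aldh1a2 was called, lower, against 2.73%.

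**Figure D2:**
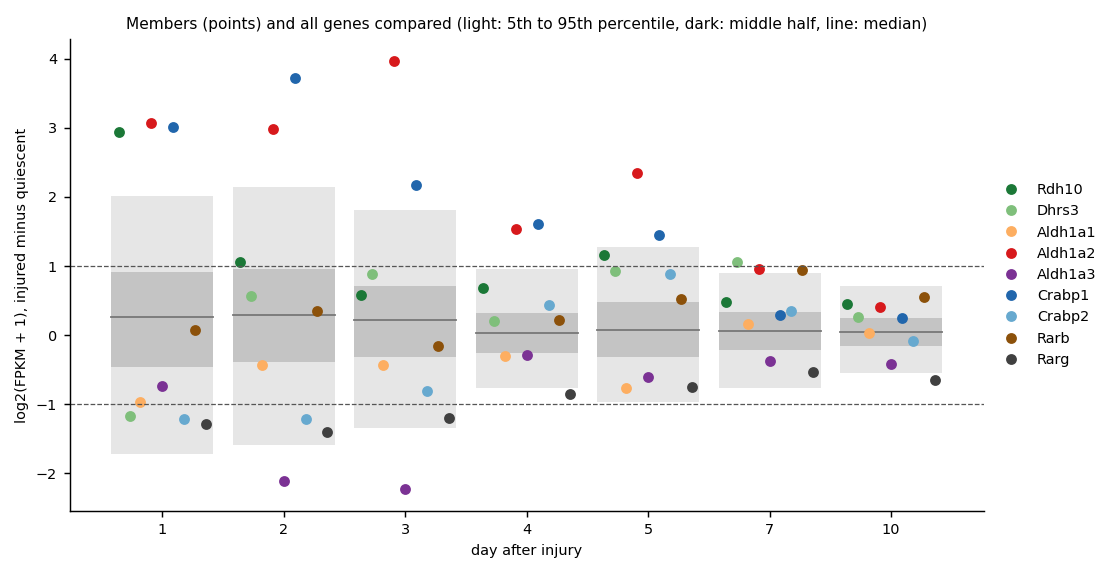
Difference in log2(FPKM + 1) from the quiescent library (vertical axis) by day, with members as coloured points and all genes compared as bands (light from the 5th to the 95th percentile, dark the middle of the distribution from the 25th to the 75th, line the median); dashed lines mark the difference of 1. Outside the light band lie 3 members on each of days 1 to 4 and on day 7, 2 on day 5 and 1 on day 10. Crabp1, counted here on days 4 and 5, was under 5 FPKM in both libraries and so was not among the genes compared on those days.

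Rdh10, the enzyme of the first oxidation step and the main retinol dehydrogenase of the mouse embryo, lies on chromosome 1 at 16105882 to 16132550 (mm10, plus strand, 6 exons). Its level was 5.39 FPKM in quiescent cells, 48.1 on day 1, 12.3 on day 2, 8.603 on day 3, 9.29 on day 4, 13.3 on day 5, 7.94 on day 7 and 7.73 on day 10. The day 1 library stood alone, and the quiescent library was the lowest of the 8. The day 1 level was 8.92-fold the quiescent level (counting interval 7.97 to 10.0, log2 difference 2.94), rank 124 from the top of 8701 genes. Days 2 and 5 were called higher by smaller steps, 2.28-fold and 2.47-fold. Under the 8 settings tried these 2 calls held in 4 and 5, with log2 differences down to 0.50 and 0.71. The other days were not called.

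Dhrs3, which reduces retinal to retinol and so works against Rdh10, lies on chromosome 4 at 144892827 to 144927645 (plus strand, 7 exons). It stood at 20.9 FPKM in quiescent cells, 8.71 on day 1, 31.4 on day 2, 39.5 on day 3, 24.2 on day 4, 40.9 on day 5, 44.5 on day 7 and 25.2 on day 10. Day 1 was the lowest library and day 7 the highest. Against quiescent, Dhrs3 fell 2.40-fold on day 1 (log2 difference -1.18) and rose 2.13-fold on day 7 (1.05), with day 3 at 0.89 and day 5 at 0.93, both under the threshold. Day 5 was within counting error of day 7, and the day 7 call held in 4 of 8 settings, being lost with a pseudocount of 5, with either rescaling and against day 10. The ratio of Rdh10 to Dhrs3 was 0.258 in quiescent cells, 5.52 on day 1 and between 0.178 and 0.392 in the other libraries, so Rdh10 exceeded its counterpart on day 1 alone.

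Aldh1a2 (chromosome 9, 71215789 to 71296243, plus strand, 14 exons) moved most among the enzymes that make retinoic acid. It stood at 19.4 FPKM in quiescent cells, 171 on day 1, 159 on day 2, 318 on day 3, 58.3 on day 4, 103 on day 5, 38.6 on day 7 and 26.0 on day 10. Quiescent cells were the lowest library, days 7 and 10 came next, and no 2 neighbours in this order were within the counting error of each other. Aldh1a2 was called higher on days 1 to 5, by 8.81-fold (counting interval 8.17 to 9.52), 8.23-fold, 16.4-fold (15.3 to 17.7), 3.01-fold and 5.31-fold. The log2 differences were 3.08, 2.98, 3.97, 1.54 and 2.35, and on day 3 it had rank 51 from the top of 8765 genes compared. Day 7, at 1.99-fold and a log2 difference of 0.96, and day 10, at 1.34-fold, were not called.

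Aldh1a3 (chromosome 7, 66390893 to 66427477, minus strand, 13 exons), which catalyses the same reaction, took the opposite course. Its level was 45.9 FPKM in quiescent cells, 27.3 on day 1, 9.82 on day 2, 9.01 on day 3, 37.5 on day 4, 29.95 on day 5, 35.0 on day 7 and 34.0 on day 10. Days 2 and 3 were the low libraries, did not differ from each other beyond counting error, and lay 4.68-fold and 5.10-fold below quiescent (log2 differences -2.12 and -2.23). The quiescent library was the highest, and days 4, 7 and 10 were within 1.35-fold of it. Some markers listed for other cell types were also called lower on days 2 and 3. Among Schwann markers 2 of 7 were, with a sum of 136 FPKM in quiescent cells, 10.3 on day 2 and 19.7 on day 3. Of 9 endothelial markers 1 was, Tek, at 68.9, 9.02 and 9.39 FPKM. Cdh5, the next highest of these in quiescent cells, was at 4.04 FPKM there. So were 5 of 9 mural and 3 of 6 tendon markers called lower on each day. Of the mural markers, 1 was called higher on day 2 and 2 on day 3. In quiescent cells and on days 2 and 3, the mural sum was 133, 95.7 and 154.5 FPKM and the tendon sum 182, 188 and 206 FPKM. None of these 4 lists had a marker at the floor on those days. Perineurial and epithelial-like markers called lower were 2 of 6 on each day, with 3 others at the floor on day 2. Muscle fibre markers called lower were 3 of 9 on day 2 and 0 on day 3. Of the 10 macrophage and monocyte markers, 7 and 9 were called higher and 0 lower. Of the 9 immediate early genes, 8 and 7 were called lower. Their sum was 5999 FPKM in quiescent cells, 2775 on day 2 and 2650 on day 3. On day 1 the Schwann sum was 7.55 FPKM and Aldh1a3, at a log2 difference of -0.73, was not called. With FPKM rescaled by median ratios or to a common sum, Aldh1a3 was called lower on day 1, at -1.07 and -1.26. The part of other cell types and of the immediate early genes in the Aldh1a3 difference was not tested.

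Aldh1a1 (chromosome 19, 20601982 to 20643462, plus strand, 13 exons) varied least of the 3 isozymes. It stood at 36.5 FPKM in quiescent cells, 18.3 on day 1, 26.7 on day 2, 26.8 on day 3, 29.5 on day 4, 21.1 on day 5, 40.8 on day 7 and 37.3 on day 10. Day 1 was the lowest library, at a log2 difference of -0.96 that missed the threshold, and quiescent and day 10 were within counting error of each other. With FPKM rescaled by median ratios or to a common sum, day 1 passed the threshold, at -1.30 and -1.48, and with the common sum so did day 2, at -1.05, and day 5, at -1.13. Its coding sequence was 91.6% identical to that of Aldh1a7, a neighbouring copy listed at 0.227 to 0.439 FPKM, so reads shared by the pair make both values uncertain. The 3 isozymes were 68.6% to 70.0% identical to each other.

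Together the 3 isozymes summed to 102 FPKM in quiescent cells, 216 on day 1, 196 on day 2, 354 on day 3, 125 on day 4, 154 on day 5, 114 on day 7 and 97.3 on day 10. The make-up of that sum, which does not depend on how libraries are scaled, turned over with injury. In quiescent cells Aldh1a3 held 45.1% of it, Aldh1a1 35.9% and Aldh1a2 19.0%. Aldh1a2 then held 79.0% on day 1, 81.3% on day 2 and 89.9% on day 3, 46.6% on day 4, 66.9% on day 5, 33.7% on day 7 and 26.7% on day 10. Aldh1a3 was down to 2.54% on day 3 and back at 34.9% on day 10, and Aldh1a1 was at 7.58% on day 3 and 38.3% on day 10.

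**Figure D3:**
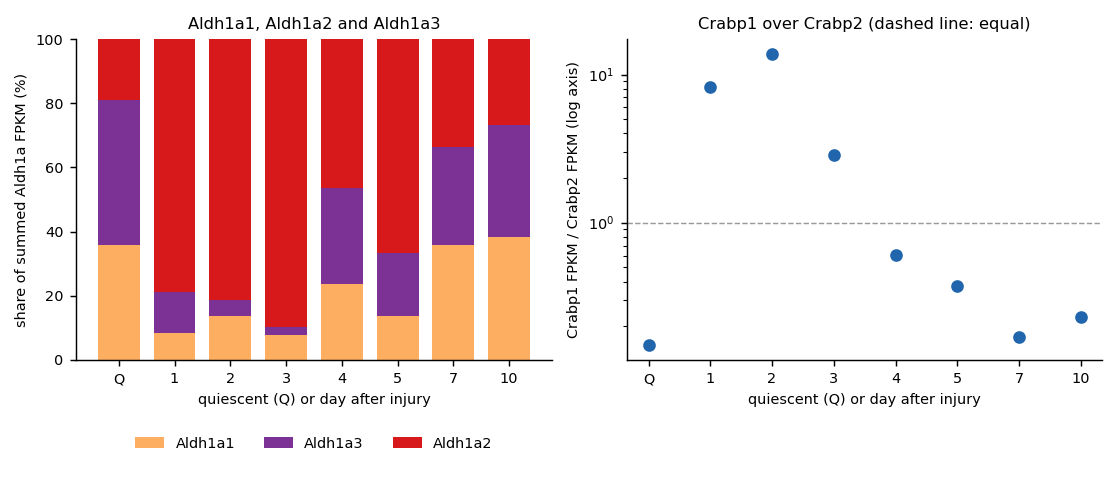
Left, share in percent (from 0 to 100) of Aldh1a1, Aldh1a3 and Aldh1a2 in their summed FPKM in each library; right, ratio of Crabp1 to Crabp2 FPKM on a log axis, with a dashed line where they are equal. Aldh1a2 goes from 19.0% of the sum in quiescent cells to 89.9% on day 3, and the Crabp ratio is above the line on days 1, 2 and 3 only.

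The libraries with the most Aldh1a2 were also rich in transcripts of macrophages, which are known to express this gene in some settings. The sum of the 10 macrophage and monocyte markers (Ptprc, Cd68, Adgre1, Csf1r, Tyrobp, Lyz2, Ctss, Fcer1g, C1qa and C1qb) was 25.9 FPKM in quiescent cells, 140.3 on day 1, 244 on day 2, 851 on day 3, 132 on day 4, 461 on day 5, 65.5 on day 7 and 71.8 on day 10. Both it and Aldh1a2 were highest on day 3 and higher on day 5 than on day 4. Of the 10 markers, 6 were called higher on day 1, 7 on day 2, 9 on day 3, 6 on day 4, 8 on day 5, 4 on day 7 and 5 on day 10, and none was at the floor in any library. Aldh1a2 did not keep a fixed ratio to this sum: it was 0.749 in quiescent cells, 1.22 on day 1, 0.654 on day 2, 0.374 on day 3, 0.440 on day 4, 0.223 on day 5, 0.589 on day 7 and 0.362 on day 10. The gene whose pattern over the 8 libraries was most like that of Aldh1a2, among 9422 rows searched, was Pf4, a chemokine gene of platelets and some macrophages, at a root mean square distance of 0.25 between centred log2(FPKM + 1) profiles. Pf4 stood at 2.86 FPKM in quiescent cells, 26.5 on day 1, 31.2 on day 2, 65.1 on day 3, 6.14 on day 4, 17.1 on day 5, 5.95 on day 7 and 4.70 on day 10. Next came Lilrb4, a receptor gene of myeloid cells, at 0.34 and Wfdc17, also expressed in myeloid cells, at 0.42. Which cells the Aldh1a2 transcripts came from was not tested.

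**Figure D4:**
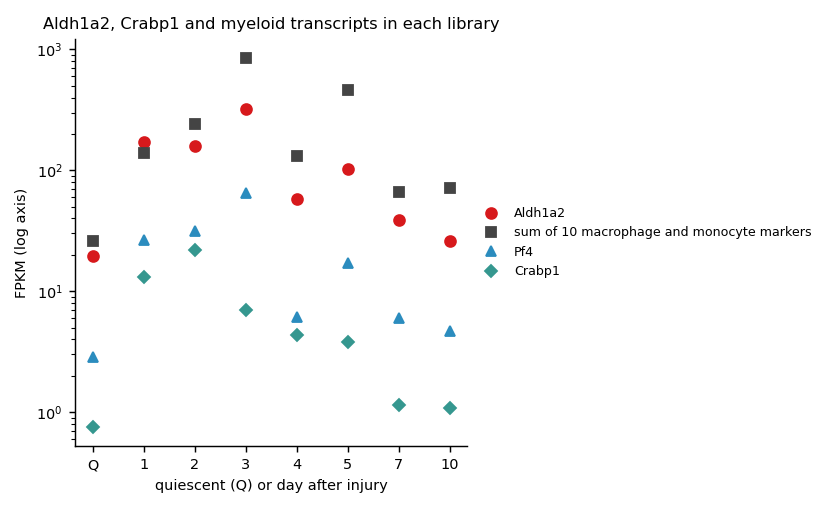
FPKM on a log axis of Aldh1a2, Crabp1, Pf4 and the sum of 10 macrophage and monocyte markers in the quiescent library (Q) and on each day after injury, 1 library per point. Aldh1a2, Pf4 and the marker sum are all highest on day 3, at 318, 65.1 and 851 FPKM, while Crabp1 is highest on day 2, at 22.1 FPKM.

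The carriers also changed places. Crabp1 (chromosome 9, 54764808 to 54773109, plus strand, 4 exons) stood at 0.751 FPKM in quiescent cells, 13.2 on day 1, 22.1 on day 2, 6.93 on day 3, 4.36 on day 4, 3.77 on day 5, 1.14 on day 7 and 1.08 on day 10. Days 1 and 2 were the high libraries, and quiescent, day 7 and day 10 were not separated beyond counting error. Crabp1 was higher than in quiescent cells by 17.5-fold on day 1 (counting interval 8.94 to 39.3), 29.4-fold on day 2 (15.1 to 65.5) and 9.22-fold on day 3 (4.48 to 21.4), with log2 differences of 3.02, 3.72 and 2.18. Days 4 and 5, at 5.81-fold (2.73 to 13.8) and 5.03-fold (2.36 to 11.9), had log2 differences of 1.62 and 1.45. They were not called because neither library reached 5 FPKM. The day 3 call was lost with a minimum of 10 FPKM. The quiescent value rests on an estimated 9 fragments, and the day 2 value on 154.

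Crabp2 (chromosome 3, 87948693 to 87953372, plus strand, 4 exons), which hands retinoic acid to the receptors, was at 5.03 FPKM in quiescent cells, 1.61 on day 1, 1.60 on day 2, 2.43 on day 3, 7.17 on day 4, 10.2 on day 5, 6.71 on day 7 and 4.70 on day 10. Days 1 to 3 were the low libraries, neighbours among them did not differ beyond counting error, and day 5 was the highest. Crabp2 fell 3.13-fold on day 1 and 3.14-fold on day 2 (log2 difference -1.21 on both), on an estimated 18 and 13 fragments, and both calls were lost with a minimum of 10 FPKM, with a pseudocount of 5 and against day 10, where neither library reached 5 FPKM. Day 3, at a log2 difference of -0.81, and day 5, at 0.89, were not called. Day 3 was called lower with a pseudocount of 0.1 (-1.02), with median ratios (-1.02) and with a common sum (-1.17). Day 5 was called higher with a pseudocount of 0.1 (1.00). The ratio of Crabp1 to Crabp2 was 0.149 in quiescent cells, 8.19 on day 1, 13.8 on day 2, 2.85 on day 3, 0.608 on day 4, 0.371 on day 5, 0.170 on day 7 and 0.230 on day 10.

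Fabp5, a fatty acid carrier that can also deliver retinoic acid, to the receptor Ppard, is no member but, like Aldh1a2, was highest on day 3. It stood at 4.56 FPKM in quiescent cells, 30.8 on day 1, 79.0 on day 2, 108 on day 3, 22.4 on day 4, 23.3 on day 5, 8.02 on day 7 and 10.7 on day 10. It was called higher on every day but day 7, and by 23.7-fold on day 3. The macrophage and monocyte marker sum was also highest on day 3, at 851 FPKM. By likeness of pattern to Aldh1a2, Fabp5 had rank 9, at a distance of 0.47. Which cells the Fabp5 transcripts came from was not tested. Ppard stayed between 7.92 and 9.83 FPKM and was not called.

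Among the receptors, Rarg (chromosome 15, 102234940 to 102257483, minus strand, 10 exons) was the most abundant in every library. It was at 74.4 FPKM in quiescent cells, 29.97 on day 1, 27.5 on day 2, 31.7 on day 3, 40.6 on day 4, 43.7 on day 5, 51.3 on day 7 and 47.2 on day 10. The quiescent library stood above the rest, and days 1, 2 and 3 were the low ones. Rarg was lower than in quiescent cells by 2.48-fold on day 1, 2.71-fold on day 2 and 2.35-fold on day 3 (log2 differences -1.28, -1.40 and -1.20). With FPKM rescaled to a common sum, days 4 and 5 were called lower too, at -1.01 and -1.13. Days 1 to 3 also lay below every later day beyond counting error, with day 4 at 1.28-fold day 3 (counting interval 1.18 to 1.39). Against day 10 in place of quiescent, the differences were -0.64, -0.76 and -0.56, none of them called. Rescaled FPKM was not compared with day 10, and with FPKM as deposited the calls rest on the quiescent library. That library also had the most immediate early transcripts, 5999 FPKM summed over 9 genes against 2650 to 4215 in the injured libraries, and their part in the Rarg difference was not tested.

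Rarb (chromosome 14, 16430840 to 16575210, minus strand, 8 exons), the receptor gene with the direct repeat shown above, was low throughout. Its level was 2.59 FPKM in quiescent cells, 2.78 on day 1, 3.59 on day 2, 2.23 on day 3, 3.17 on day 4, 4.14 on day 5, 5.89 on day 7 and 4.23 on day 10. Day 7 was the highest library and the only neighbour in the order separated by more than counting error. At 2.28-fold above quiescent (counting interval 1.84 to 2.83) day 7 had a log2 difference of 0.94 and was not called, and with a pseudocount of 0.1 it was, at 1.16. Day 3 was the lowest library and was not separated from quiescent beyond counting error. Exons of Top2b on the opposite strand overlap 1793 bases of the Rarb transcript in GENCODE M21, and Top2b stood at 17.8 to 24.4 FPKM. The use of strand in counting is not given in the sources used here, so reads of the 2 genes may not have been told apart. Rara, the third receptor and no member, ran from 15.03 to 20.9 FPKM and was never called. Rarg held 78.0% of the summed FPKM of the 3 receptors in quiescent cells and 56.7% to 71.0% after injury, and Rarb held 2.71% to 8.01%.

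The patterns nearest to the other members were named by the same distance, over the 8 libraries, 3 genes for each. Nearest to Rdh10 were Samd11 (0.23), Rras2, a small GTPase gene, and Ereg, a ligand gene of the epidermal growth factor family. Samd11 was at 2.65 FPKM in quiescent cells and 18.7 on day 1. Nearest to Dhrs3 were Trappc6a (0.15), Fam173a and Tcea3, to Aldh1a1 Ift172 (0.10), Dalrd3 and Athl1, and to Aldh1a3 Cxcr7 (0.16), Cadm3 and Car8. Cxcr7, a chemokine receptor gene, was at 437 FPKM in quiescent cells, its highest library. Nearest to Crabp1 were Tubb3 (0.23), a tubulin gene, Hn1l and Apitd1, and to Crabp2 Igfbp4 (0.26), a gene of an insulin-like growth factor binding protein, 2210039B01Rik and Mfap5. Nearest to Rarb were Snhg7 (0.13), Adcyap1r1 and Trpt1, and to Rarg Sh2b1 (0.10), Rab11fip5 and Hspa1b, a heat shock gene. No member was among the 3 nearest genes of another.

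The rest of the pathway was read from lists. Of 50 other genes listed for retinoid uptake, oxidation, degradation, reception and response, 25 reached 5 FPKM in some library and 17 stayed under 1 FPKM in all 8. The number called against quiescent was 4 of 24 compared on day 1 (35.0% of all genes compared), 6 of 24 on day 2 (34.6%), 4 of 23 on day 3 (24.0%), 2 of 23 on day 4 (6.72%), 4 of 23 on day 5 (13.0%), 1 of 25 on day 7 (6.46%) and 1 of 25 on day 10 (4.30%). Over all days Dhrs4, Fabp5, Rbp4 and Retsat were called higher and Adh1, Adh7, Bco2, Crebbp, Cyp26b1 and Rarres2 lower. The median log2 difference of the genes compared was -0.19 on day 1, -0.21 on day 2, -0.26 on day 3, -0.19 on day 4, -0.43 on day 5, -0.15 on day 7 and -0.02 on day 10, below the median of all genes compared on each.

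Of 7 genes of retinol uptake and storage, 2 were called, both higher. Rbp4, the plasma carrier of retinol, rose from 16.5 to 46.7 FPKM on day 1, and Retsat, a retinol saturase, from 6.46 to 14.2 FPKM on day 2. The retinol receptor Stra6 reached at most 1.09 FPKM and the retinol-storing enzyme Lrat 0.0403 FPKM.

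Of 18 other oxidoreductases, 1 was called higher and 3 lower. Dhrs4 rose from 17.7 to 42.5 FPKM on day 2. Adh1, an alcohol dehydrogenase that also oxidises retinol, was at 113 FPKM in quiescent cells and fell to 31.2 on day 1 and 36.1 on day 2, then stood at 61.5 on day 3 and 112 on day 10. Adh7, of the same family, fell from 17.1 to 4.63 FPKM on day 3. Bco2, which cleaves carotenoids, fell from 6.65 to 0.292 FPKM on day 1. Of the 3 degrading enzymes only Cyp26b1 passed 5 FPKM, at 9.61 in quiescent cells, 5.58 on day 1, 5.94 on day 2, 9.33 on day 3, 3.94 on day 4, 6.45 on day 5, 10.7 on day 7 and 7.92 on day 10. It was called lower on day 4 alone, and Cyp26a1 and Cyp26c1 stayed at or under 0.487 and 0.0674 FPKM.

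No other retinoid receptor was called: Rxra ran from 10.7 to 17.4 FPKM and Rxrb from 13.8 to 18.6, and Rxrg stayed under 5 FPKM. Of the 7 receptor coregulators reported, 1 was called, the coactivator gene Crebbp. It fell from 6.42 to 2.70 FPKM on day 3 and was also lower on days 5 and 7. Of 14 genes known to respond to retinoic acid, 3 reached 5 FPKM. Among these Cyp26b1 and Rarres2 were called lower and Tgm2, at 15.4 to 27.7 FPKM, was called in neither direction. Rarres2, which encodes the chemoattractant chemerin, fell from 753 to 323 FPKM on day 3. Another 6 of the 14 stayed under 1 FPKM.

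**Figure D5:**
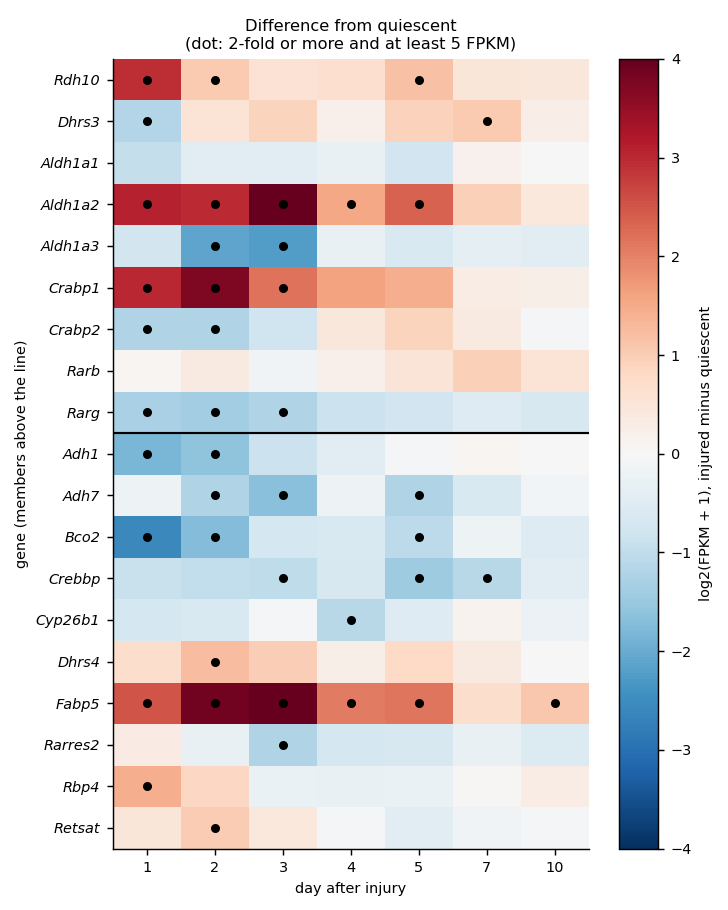
Difference in log2(FPKM + 1) from the quiescent library (colour, blue lower and red higher) by day for the 9 members, above the line, and the 10 other pathway genes called on any day, below it; dots mark the differences called. Aldh1a2 and Fabp5 are dotted on each of days 1 to 5, and Aldh1a1 and Rarb carry no dot.

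No other aldehyde dehydrogenase was called higher on day 1. Of 15 listed, 11 reached 5 FPKM, and the number called was 2 of 9 compared on day 1, 4 of 10 on day 2, 4 of 11 on day 3, 1 of 9 on day 4 and 0 of 9 on each of days 5, 7 and 10. The shares of all genes called on days 1 to 4 were 35.0%, 34.6%, 24.0% and 6.72%. Aldh2, which clears acetaldehyde, fell from 299 FPKM in quiescent cells to 99.6 on day 1 and was still lower on day 4. Aldh6a1 fell from 10.5 to 3.66 FPKM on day 1. Aldh1l1 and Aldh1l2, folate enzymes, rose, the former from 1.95 to 12.7 FPKM on day 2 and the latter from 0.914 to 5.70 FPKM on day 3. Aldh18a1, of proline synthesis, rose from 12.7 to 34.5 FPKM and Aldh9a1 from 8.66 to 20.6 FPKM on day 2.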

How the data were processed

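RNA sequencing of sorted mouse muscle mesenchymal progenitors gave 8 libraries, 1 per time point, grouped by their labels. The authors deposited 1 table of FPKM values per gene. The submitters' processing notes name the tools Cufflinks, TopHat2, Bowtie2 and bcl2fastq and the build mm10. For versions, annotation, strand and reads with several matches, the setting is not given in the sources used here. Because each FPKM is divided by the total of mapped fragments, a shift in abundant genes moves the values of the rest. Values of 0.001 or 0 were read as a floor.

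From the table, log2(FPKM + 1) differences were taken in Python 3.11.15 with NumPy 2.4.6, pandas 2.3.3 and SciPy 1.17.1. A call needed a difference of 1 and 5 FPKM in the higher library, and its background is the share of all genes so called. With 1 library per time point no test was run. The value of 1 fragment, and so depth, was estimated from low values of 2088 genes with long transcripts: 75.2% to 80.4% of low values lay within 0.15 of a whole fragment, where chance gives 30%. These scripts were tested on simulated data. All 9 members are named, and from each list the genes called on any day and those whose level a sentence needs. The 3 nearest patterns were sought for each member spanning a log2 of 1 or more, among rows of 200 bases or more that reached 5 FPKM. Members and lists were chosen with earlier results of these data known. Of the listed genes, 2 are not reported here. Older symbols were matched through RefSeq synonyms. Coding sequences (GENCODE M21) were aligned with Biopython 1.88. Promoter windows are from RefSeq, GRCm38.p6. Alternatives were 2 other pseudocounts, 2 other scalings, 2 other minima and day 10 as reference.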

Additional observations from a re-analysis of the deposited data

How the results depend on the processing

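Of 20 calls of members against quiescent, 20 were still made with a pseudocount of 0.1, 14 with a pseudocount of 5, 18 with median-ratio scaling, 17 with FPKM rescaled to a common sum, 20 with no minimum, 17 with a minimum of 10 FPKM and 12 with day 10 as reference, and 0 changed sign. Calls of Aldh1a2 on days 1 to 5 and of Aldh1a3 on days 2 and 3 held under all 8 settings. Counts of members called moved as follows. The share of all genes called under each alternative setting is not given here. These counts, and those of other pathway genes below, are therefore not read against a background. On day 1, 8 were called with either scaling and 4 with a pseudocount of 5 or against day 10. On day 2, 3 were called against day 10. On day 3 the count ran from 3 to 5. On day 4, 2 were called with a common sum or no minimum. On day 5, 1 was called with a pseudocount of 5 or against day 10, and 3 with a pseudocount of 0.1, a common sum or no minimum. On day 7, 2 were called with a pseudocount of 0.1 and 0 with a pseudocount of 5, either scaling or day 10 as reference. From day 2 to day 3, 2 were called with either scaling, and from day 5 to day 7, 2 with a common sum. Counts of other pathway genes moved more. With a common sum they were 8 on day 1, 12 on day 2, 8 on day 3 and 9 on day 5, and with median ratios 7 on day 1. With a pseudocount of 5 they were 3 on day 2, 1 on day 4, 1 on day 5, 0 on day 7 and 0 on day 10. A minimum of 10 FPKM left 1 on day 4, 2 on day 5 and 0 on day 7, no minimum gave 2 on day 7, and day 10 as reference 2 on day 3, 1 on day 4, 2 on day 5 and 0 on day 7. The common sum moved the day 1 median of all genes from 0.26 to -0.31. Other causes were not tested. Chosen after seeing the data, leaving out days 3 and 5 kept 7 members called on some day. That count could not change, because all 7 were called on day 1 or day 2. Also chosen after seeing the data, adding Aldh1a7 to the isozyme sum moved the share of Aldh1a2 on day 3 from 89.9% to 89.8%. No paired analysis was possible because each time point has 1 library. Crabp1 in quiescent cells and on days 7 and 10, and Crabp2 on days 1 to 3, rest on at most 20 fragments each.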
